A study of Mus musculus with 15 samples.

Results

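Spleen cells of leukemic mice with mutant p53 were compared with those of leukemic mice with intact Trp53 after culture with ibrutinib. The cells are mixed, since B-cell markers were outnumbered by T-cell or myeloid markers in some samples, as given below. The groups were chosen by their labels as the 7 ibrutinib samples among the 15 samples of the series. The mutant group held 4 samples from Eμ-TCL1;p53R172H/+ mice (replicates 1, 3, 4 and 5, below called p53 mutant) and the other group held 3 samples from Eμ-TCL1 mice (replicates 1, 3 and 4, below called TCL1). All were C57Bl/6 mice, and all carried the TCL1 transgene, whose Eμ enhancer drives it in B-cells. The p53R172H allele is a germline knock-in, so every cell of a mutant spleen carries it. Leukemias can lose the wild-type allele, and whether these samples had was not analysed here. Tumor-burdened spleens were disrupted mechanically, with no sort named, and the cells were kept for 24 h with 5 μM ibrutinib before RNA was taken. The other 8 samples, 3 TCL1 and 5 p53 mutant, had DMSO in place of the drug and are used only for comparison. Ages and the number of mice behind the samples are not given in the sources used here, so p-values measure the spread between samples only.

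The Eμ-TCL1 mouse is a model of chronic lymphocytic leukemia, and its leukemias resemble CD5+ B-1 cells. These cells depend on signals through the B-cell receptor, which pass from the receptor chains to the kinases Lyn, Syk and Btk, then to the lipase Plcg2, and on to NF-kB, calcium and MAP kinases. Ibrutinib binds Btk covalently and blocks its kinase activity. The p53 protein is a transcription factor that answers DNA damage by arrest, repair or cell death, and the R172H change alters the structure of its DNA-binding domain. Through p21 and the DREAM complex, active p53 also lowers genes of mitosis, which makes those genes a common readout in p53 studies.

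The values are library-size-normalized read counts (CPM) for 16428 genes, and column sums ran from 756625 to 1359650. The libraries differed in cell makeup before any single gene was considered. Summed levels of 14 B-cell markers were 564.6, 4292.9 and 3221.8 CPM in TCL1 replicates 1, 3 and 4, and 76.2, 691.3, 1847.1 and 1699.6 CPM in p53 mutant replicates 1, 3, 4 and 5. The groups overlapped, and the lowest sum was that of p53 mutant replicate 1, in which 2 of the 14 markers were under 1 CPM. Summed T-cell markers were 353.9, 206 and 693.5 CPM in TCL1 and 3134.9, 2068.3, 1043.3 and 1295.1 CPM in p53 mutant samples. Here every mutant sample was above every TCL1 sample (exact permutation test, p = 0.0571, where the smallest possible p over the 35 splits is 0.0286). TCL1 replicate 1 also stood apart with 21056.2 CPM of myeloid and 15663.5 CPM of erythroid markers, against 32.3 to 1188.7 CPM and 51.2 to 295.4 CPM in the other samples. In bulk RNA, fewer cells of a type and less RNA per cell cannot be told apart. Sex moved with genotype too, since Xist was between 868.7 and 1557.4 CPM in TCL1 samples and at 1052.3 CPM in p53 mutant replicate 5, while the Y-linked Ddx3y was between 82.1 and 137.2 CPM in p53 mutant replicates 1, 3 and 4.

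**Figure D1:**
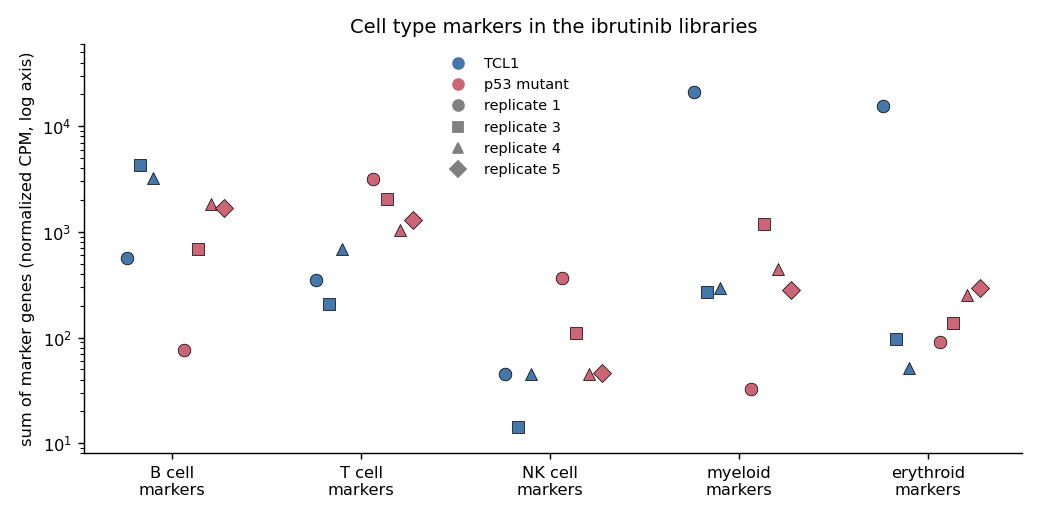
Summed normalized CPM of the marker genes of each cell type (log axis) for each ibrutinib sample, TCL1 in blue and p53 mutant in red, with the symbol giving the replicate number. T-cell markers separate the genotypes, B-cell markers do not, and TCL1 replicate 1 is high in myeloid and erythroid markers.

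No gene passed the threshold between the genotypes under ibrutinib. With limma on log2(CPM + 1) and Benjamini-Hochberg adjustment over all 16428 genes, 0 genes (0%) had an adjusted p under 0.05, and the lowest adjusted p was 0.103. The unadjusted p was under 0.05 for 1973 genes (12%), of which 934 (5.69%) were higher and 1039 (6.32%) lower in p53 mutant samples. Quantile normalization, which moved the median difference of all genes from -0.05 to 0.068 log2, gave 1372 higher and 696 lower. A covariate for Y-linked transcripts leaves p53 mutant replicate 5 alone against the TCL1 samples, since the other p53 mutant samples all had Y-linked RNA. Its genotype term thus rests on 1 p53 mutant sample. The samples of the genotypes did not overlap in 1098 genes (6.68%) that were higher and 981 genes (5.97%) that were lower. A stricter set, with an unadjusted p under 0.05 in the fit of all 7 samples and in each of the 7 fits that left out 1 sample, held 407 higher genes (2.48%) and 375 lower genes (2.28%). All 782 had the same sign in the 5 samples left when replicate 1 of each genotype was removed, and 710 had an unadjusted p under 0.05 there. The set was chosen in fits that hold these same samples, so this is no independent check. Sample quality weights gave 28 genes with an adjusted p under 0.05, and leaving out TCL1 replicate 1 gave 24 and leaving out p53 mutant replicate 5 gave 5. Differences below are on the log2(CPM + 1) scale, p53 mutant minus TCL1, with the standard error (SE), and understate the change of genes with low values.

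The lowest p of any gene belonged to Ncf4 (chromosome 15 of GRCm38, 78244801 to 78262580), which encodes p40phox, a cytosolic subunit of the phagocyte NADPH oxidase. Ncf4 was at 119.8, 86.6 and 93.6 CPM in TCL1 and at 9.8, 18.3, 19.2 and 13.6 CPM in p53 mutant samples. The genotypes were far apart, at 100 ± 17.5 (SD, n = 3) and 15.2 ± 4.37 CPM (SD, n = 4), a log2 difference of -2.67 (SE 0.26, limma adjusted p = 0.103). The enzyme transfers electrons to oxygen and also acts in B-cell activation, and of its 9 genes measured 8 were lower in p53 mutant samples. The exception, Nox1, named after its values were seen, was at most 1.1 CPM in any sample (log2 difference 0.11). Cybb, the catalytic subunit gp91phox, was at 1095, 627 and 404.9 CPM in TCL1 and at 5.7, 78.8, 73.7 and 46.3 CPM in p53 mutant samples, a log2 difference of -4.14 (SE 0.88, adjusted p = 0.216). Cybb is on the X chromosome, and the p53 mutant sample with Xist RNA, replicate 5, was at 46.3 CPM. With only 1 such p53 mutant sample, sex and genotype cannot be told apart for this gene. Cyba, which encodes the p22phox partner of gp91phox, was at 260.7, 99.8 and 148 CPM against 60.3, 53.6, 50.5 and 69 CPM. Rac2, the small GTPase that activates the complex, was at 394.6, 450.4 and 438.6 CPM against 260.7, 242.3, 239.9 and 206.2 CPM, a log2 difference of -0.85 (SE 0.17, adjusted p = 0.203). Among the oxidase genes, 5 had an unadjusted p under 0.05 and all 5 were lower in p53 mutant samples without overlap, where 5.97% of all genes were lower without overlap. The fifth of them was Ncf1 (p47phox), named after its values were seen, at 513.5, 144.1 and 116.6 CPM against 13.7, 86.9, 75.3 and 71.2 CPM. The list median was -1.42 against -0.05 for all genes. It was -0.73 without replicate 1 of each genotype, where 5 oxidase genes had an unadjusted p under 0.05, beside 2910 of all 16428 genes. Myeloid cells use the same enzyme, and the myeloid marker sum was highest in TCL1 replicate 1. In TCL1 replicates 3 and 4, whose myeloid sums of 267.3 and 293.3 CPM lay within the range of the p53 mutant samples, Ncf4 was at 86.6 and 93.6 CPM. B-cell markers (median -1.54) and T-cell markers (median 2.14) also differed, and the part of any cell type in the oxidase difference was not tested.

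**Figure D2:**
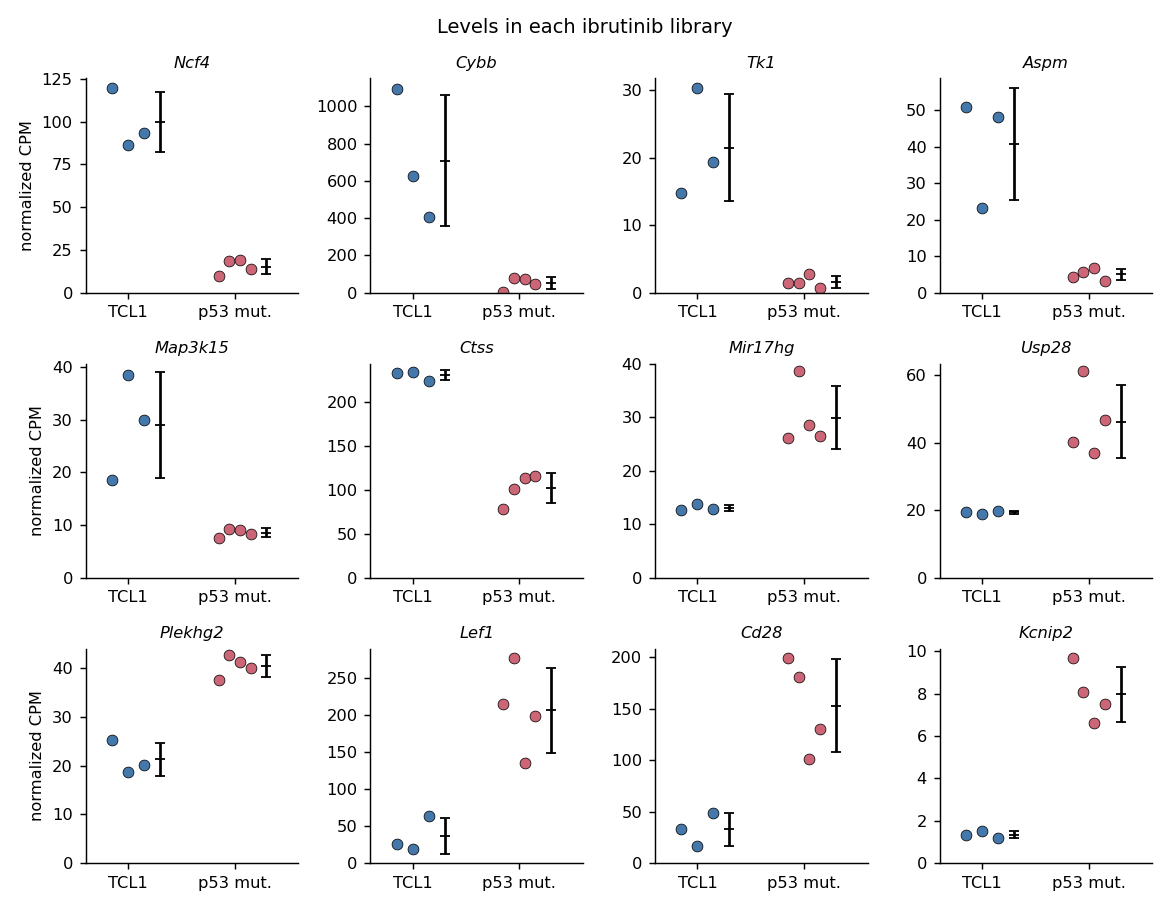
Normalized CPM of 12 genes in each ibrutinib sample, TCL1 in blue and p53 mutant in red, with the mean and SD beside the points and axes that start at 0. In each panel the genotypes do not overlap, with Ncf4, Cybb, Tk1, Aspm, Map3k15 and Ctss lower and Mir17hg, Usp28, Plekhg2, Lef1, Cd28 and Kcnip2 higher in p53 mutant samples.

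Genes of mitosis were lower in p53 mutant samples in nearly the whole list. Promoters of such genes often hold a CCAAT box and the core of a cell cycle homology region, TTTGAA, at which the DREAM and MuvB complexes bind. The promoters of the 4 mitotic genes with the lowest p are shown, chosen by that p alone, and all 4 carry both letter strings. They are from RefSeq (GRCm38.p6), read 5′ to 3′ on the strand of the gene from 200 bases before to 30 bases after the start site, with both strings and their reverse complements in capitals.
Aspm, chr1:139454573-139454802, plus strand: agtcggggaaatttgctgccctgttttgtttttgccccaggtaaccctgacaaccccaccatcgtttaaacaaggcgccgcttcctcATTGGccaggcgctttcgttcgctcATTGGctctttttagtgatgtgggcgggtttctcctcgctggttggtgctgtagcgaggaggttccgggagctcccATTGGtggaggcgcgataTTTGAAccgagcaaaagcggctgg
Kif23, chr9:61946770-61946999, minus strand: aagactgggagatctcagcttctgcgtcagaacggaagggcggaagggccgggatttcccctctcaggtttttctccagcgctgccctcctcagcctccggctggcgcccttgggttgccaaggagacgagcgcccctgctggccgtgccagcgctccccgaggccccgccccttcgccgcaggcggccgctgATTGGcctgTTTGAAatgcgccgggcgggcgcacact
Mki67, chr7:135716350-135716579, minus strand: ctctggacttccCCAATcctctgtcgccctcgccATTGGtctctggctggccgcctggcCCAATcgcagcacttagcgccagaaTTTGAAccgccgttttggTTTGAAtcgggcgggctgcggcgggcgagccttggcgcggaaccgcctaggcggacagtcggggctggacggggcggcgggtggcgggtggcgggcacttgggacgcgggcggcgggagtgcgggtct
Top2a, chr11:99024160-99024389, minus strand: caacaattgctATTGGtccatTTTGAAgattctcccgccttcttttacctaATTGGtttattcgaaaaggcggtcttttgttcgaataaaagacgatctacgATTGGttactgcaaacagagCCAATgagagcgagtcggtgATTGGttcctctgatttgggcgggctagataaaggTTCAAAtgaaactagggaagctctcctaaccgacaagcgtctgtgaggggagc
Aspm and Kif23 each had 1 TTTGAA just after the start site (first base at 7 and 3), whereas Mki67 had 2 before it (first base at -116 and -98). In windows of 300 bases around the start, TTTGAA on either strand was in 38 of 52 windows (73.1%) of the 50 mitotic genes that matched by symbol, and in 17.9% of all 32851 windows. CCAAT on either strand was in 39 of the 52 windows (75%) and in 37.4% of all windows. The 41 windows of 35 matched genes of G1/S and replication differed in their letters, with TTTGAA in 12.2%, CCAAT in 58.5% and the E2F strings TTTGGCGC and TTTCCCGC in 19.5% and 12.2%. Those E2F strings were in 0.514% and 1.07% of all windows, and in 1.92% and 3.85% of the mitotic ones. CACGTG, the E-box, was in 5.77% of the mitotic, 9.76% of the replication and 7.15% of all windows. These shares describe letters in fixed windows and not binding.

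Of the 63 mitotic genes, 60 were lower in p53 mutant samples, with a list median of -1.48. Those with an unadjusted p under 0.05 numbered 43 lower and 1 higher, beside 6.32% and 5.69% of all genes. Without overlap 29 were lower, beside 5.97% of all genes. In the stricter set there were 21 mitotic genes on the lower side, where 2.28% of all genes stood. Aspm, which organizes spindle poles, had the lowest p of the list, at 51, 23.1 and 48.2 CPM in TCL1 and 4.4, 5.7, 6.8 and 3.1 CPM in p53 mutant samples, a log2 difference of -2.76 (SE 0.35, limma adjusted p = 0.153). Mki67, the proliferation marker Ki-67 that coats mitotic chromosomes, was at 533.7, 134.5 and 257.1 CPM against 52.9, 47.8, 72.8 and 42.4 CPM, a log2 difference of -2.30 (SE 0.44, adjusted p = 0.191). Every p53 mutant sample was below every TCL1 sample for both genes. Top2a, the topoisomerase that untangles sister chromatids, was at 236.8, 45.5 and 156.8 CPM against 26.1, 24.5, 24.1 and 18.7 CPM. Kif23, a kinesin of the midbody, was at 36.4, 15.2 and 26 CPM against 7, 7.2, 6.3 and 3.9 CPM, a log2 difference of -1.87 (SE 0.34, adjusted p = 0.165). TCL1 replicate 1 gave the highest value in these 4 genes and TCL1 replicate 3 the lowest of the TCL1 samples.

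By role, all 18 kinesin and spindle genes were lower (median -1.92, 15 with an unadjusted p under 0.05), as were all 13 cyclins and mitotic kinases (median -1.51, 10 with such a p). Over all genes, 6.32% were lower at that p. Aurkb, the kinase of the chromosomal passenger complex, was at 24.4, 5.8 and 8.7 CPM in TCL1 and 1.4, 1.5, 2.5 and 2.4 CPM in p53 mutant samples. Ccnb1, cyclin B1, was at 13, 1.6 and 4.2 CPM against 0.3, 1, 1.6 and 2 CPM, and these samples overlapped. Kinetochore and chromosome genes were lower in 18 of 19 and genes of mitotic exit in 11 of 13. The exceptions were Pttg1, Smc4 and Fbxo5, named after their values were seen. Pttg1, securin, was at 12, 11 and 9.6 CPM in TCL1 and 25.2, 19.8, 17.9 and 16.8 CPM in p53 mutant samples, so it was higher without overlap (log2 difference 0.81, SE 0.20). Smc4, a condensin subunit, reached 1139.3 CPM in p53 mutant replicate 1, the sample with the highest T- and NK-cell marker sums.

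**Figure D3:**
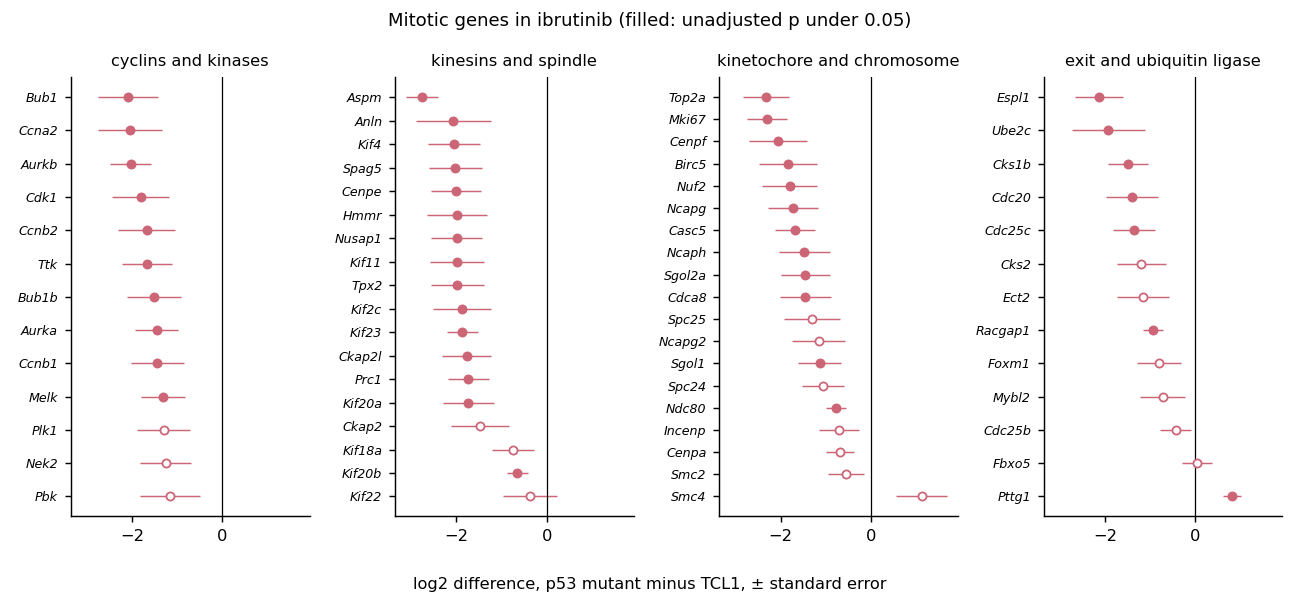
Log2 difference of each of the 63 mitotic genes in ibrutinib, p53 mutant minus TCL1, with its standard error, in 4 groups by role. Filled points have an unadjusted p under 0.05, and all but Smc4, Fbxo5 and Pttg1 lie below 0.

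The mitotic list was also read without the sample that was high in myeloid and erythroid markers. Without TCL1 replicate 1 the list median was -0.92, with 31 genes lower at an unadjusted p under 0.05. Without replicate 1 of both genotypes it was -0.89, with 59 genes lower and 20 at that p. Over all genes, the number lower at that p was 1039 with all samples, 1622 without TCL1 replicate 1 and 1698 without both. The mitotic median was thus closer to 0 in the smaller sets while the background count was larger. B-cell marker sums overlapped between the genotypes and T-cell marker sums did not, and the part of cell makeup in the mitotic difference was not tested.

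Genes of G1/S and DNA replication were less far apart. Of 42, 36 were lower, with a median of -0.44, and 4 were lower at an unadjusted p under 0.05, beside 6.32% of all genes. Without TCL1 replicate 1 the median was -0.078, and without both replicates 1 it was -0.11, with 26 lower and 16 higher. Tk1, the thymidine kinase of the salvage pathway, had the lowest p among them, at 14.8, 30.3 and 19.4 CPM in TCL1 and 1.4, 1.5, 2.7 and 0.7 CPM in p53 mutant samples. Tk1 differed by -3.12 on the log2 scale (SE 0.35, limma adjusted p = 0.103) and lay between -3.35 and -2.86 when any 1 sample was left out. E2f2, an activator of the E2F family, was at 170.5, 46.4 and 66.3 CPM against 16.7, 12, 13.4 and 11.9 CPM, a log2 difference of -2.51 (SE 0.42, adjusted p = 0.165). Mcm10, which helps to start replication forks, was at 19.3, 9 and 8.2 CPM against 1.5, 1.9, 2.9 and 4.5 CPM. In all 3 genes the genotypes did not overlap. Of the 42 replication genes, these 3 included, 10 were lower without overlap, beside 5.97% of all genes. None of the 12 polymerase and clamp genes was among them. Replication-dependent histone genes, which are near-identical copies whose reads can be split, were lower in 51 of 53 (median -1.42, and -0.63 without TCL1 replicate 1). Hist1h1d, a linker histone, was at 397.1, 83 and 121.2 CPM in TCL1 and 27.8, 27.7, 62.2 and 35.4 CPM in p53 mutant samples.

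The genes with the lowest p on the lower side were taken without immunoglobulin and T-cell receptor segments, predicted gene models and pseudogenes, among genes with a mean of at least 5 CPM in 1 genotype and no overlap. Tlr7, the endosomal receptor for single-stranded RNA, was at 33.9, 25.7 and 30 CPM in TCL1 and 9.8, 9.4, 12.5 and 6.3 CPM in p53 mutant samples, a log2 difference of -1.58 (SE 0.25). Ctss, the protease cathepsin S that trims the invariant chain, was at 233, 233.3 and 224 CPM against 78.1, 101.1, 113.6 and 115.2 CPM, a log2 difference of -1.18 (SE 0.18, limma adjusted p = 0.165). Rp2h, a GTPase-activating protein for ciliary cargo, was at 88.4, 201.3 and 155.6 CPM against 12.1, 18.6, 26.3 and 20.5 CPM. Tlr7 and Rp2h are X-linked, and p53 mutant replicate 5, with Xist RNA, was at 6.3 and 20.5 CPM. The part of sex in these differences was not tested, and only 1 p53 mutant sample had Xist RNA. Ms4a6c (log2 difference -2.21), Lpcat1 (-1.30), Spns3 (-2.81), Hoxb4 (-1.83), Reln (-2.86) and Jarid2 (-1.03) completed the 12 lower genes with the lowest p under those exclusions. Jarid2, a cofactor of Polycomb complex 2, was narrowly spread, at 88.7, 110.6 and 78.8 CPM in TCL1 and 42, 44.7, 45.1 and 45.9 CPM in p53 mutant samples. Reln encodes the secreted glycoprotein reelin, and was between 10.6 and 14.4 CPM in TCL1 and at most 1.9 CPM in p53 mutant samples. Among lower genes of the stricter set under the same exclusions, the largest differences after Xist and Cybb were those of Nav2 (-3.85), Fcrl5 (-3.46), Pld4 (-3.22), Mybl1 (-3.22), Tk1 and Nfam1 (-3.11). Fcrl5, an Fc-receptor-like protein of B-1 and marginal zone cells, was at 42, 71.4 and 40.5 CPM against 0.2, 7, 4.7 and 7.2 CPM. Mybl1, the A-Myb factor, ran from 5.8 to 151.8 CPM within TCL1, so its size rests on widely spread samples.

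Signaling through the B-cell receptor was next considered by role, since it is the pathway that ibrutinib blocks. Of 62 genes, 47 were lower in p53 mutant samples (median -0.59), and 10 lower and 2 higher genes had an unadjusted p under 0.05, beside 6.32% and 5.69% of all genes. All 6 receptor and co-receptor genes were lower (median -1.52), as were all 14 B-cell markers (median -1.54), beside T-cell marker sums that were higher. Both medians depended on single samples, at -0.64 and -0.70 without p53 mutant replicate 1 and at -2.29 and -2.41 without TCL1 replicate 1. The part of cell makeup in these differences was not tested. Cd79a, a signaling chain of the receptor, was at 42.7, 421.5 and 245.8 CPM in TCL1 and 4.6, 81.1, 193.7 and 174.2 CPM in p53 mutant samples, with wide overlap. With male transcripts as a covariate, which sets p53 mutant replicate 5 alone against TCL1, the difference of Cd79a was 0.080. Btk itself was at 60.3, 89.1 and 44.4 CPM against 1.4, 22.3, 44 and 31.3 CPM, a log2 difference of -1.90 (SE 0.97, limma adjusted p = 0.473). The highest mutant and the lowest TCL1 value of Btk nearly touched.

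Signaling genes with the lowest p lay downstream of the receptor. Map3k15, a MAP kinase kinase kinase on the X chromosome, was at 18.5, 38.5 and 30 CPM in TCL1 and 7.5, 9.3, 9.1 and 8.3 CPM in p53 mutant samples, a log2 difference of -1.60 (SE 0.26, limma adjusted p = 0.165). Dapp1, the phosphoinositide-binding adaptor Bam32, was at 55.5, 76.8 and 72.4 CPM against 26.7, 32, 35.5 and 37.1 CPM, a log2 difference of -1.03 (SE 0.19, adjusted p = 0.165). Both lay below TCL1 in every p53 mutant sample. Map2k1, the kinase Mek1, was at 78.2, 62 and 55.3 CPM against 46.6, 41.7, 44 and 45.4 CPM. Together with Rac2 these were the 4 lower signaling genes of the stricter set, beside 2.28% of all genes, and it held no higher signaling gene.

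In the NF-kB pathway, 4 of 16 genes were lower and 1 higher at an unadjusted p under 0.05, beside 6.32% and 5.69% of all genes. Their median was -0.27, and -0.090 without p53 mutant replicate 1. Nfkbia, the inhibitor IkB-alpha that NF-kB itself induces, was at 116.1, 123.3 and 95.5 CPM in TCL1 and 36.5, 66.5, 65.5 and 74.1 CPM in p53 mutant samples, a log2 difference of -0.91 (SE 0.26, limma adjusted p = 0.305). Traf1, a signaling adaptor of TNF receptors, was higher without overlap, at 29.6, 55 and 63.6 CPM against 183.5, 128.9, 88.6 and 105.7 CPM. Genes that respond to receptor engagement showed no common direction, with 13 higher and 15 lower of 28 and a median of -0.04. Genes of MHC class II presentation were all lower (11 of 11, median -1.55), but only Ctss was lower without overlap, beside 5.97% of all genes. Without p53 mutant replicate 1 their median was -0.81, and that of B-cell markers, which were lower too, was -0.70. Of 10 phospholipase A2 genes measured, Pla2g15 alone had an unadjusted p under 0.05, beside 12% of all genes. It was at 39.5, 14.8 and 13.5 CPM against 4.7, 9.2, 11.1 and 8.6 CPM.

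Genes of T-cells were higher as a list, although Kcnip2 had the lowest p on the higher side under the exclusions given above. Of 14 T-cell markers all were higher in p53 mutant samples (median 2.14), 13 had an unadjusted p under 0.05 and 11 did not overlap, where 6.68% of all genes were higher without overlap. Cd3e, a chain of the T-cell receptor complex, was at 13, 9 and 14.8 CPM in TCL1 and 82, 96, 42.2 and 34.5 CPM in p53 mutant samples. Cd28, the costimulatory receptor, was at 32.9, 16.1 and 48.7 CPM against 199.4, 181.2, 101.6 and 130.7 CPM, a log2 difference of 2.28 (SE 0.40, limma adjusted p = 0.165). The ordering of the p53 mutant samples was close to that of their T-cell marker sums, with replicates 1 and 3 high and replicates 4 and 5 lower. Icos (log2 difference 1.60, SE 0.23) and Tcf7 (2.42, SE 0.43) are further T-cell genes among the 12 higher genes with the lowest p. Segments of the T-cell receptor were higher in 116 of 122, and 63 of them had an unadjusted p under 0.05, beside 5.69% of all genes. Trac, the constant segment of the alpha chain, was at 8.2, 5.5 and 14 CPM against 76.9, 71.3, 37.2 and 60.4 CPM, a log2 difference of 2.64 (SE 0.36, adjusted p = 0.160). The T-cell marker list had 11 genes higher at an unadjusted p under 0.05 when both replicates 1 were left out, with a median of 1.92. Over all 16428 genes, 1212 were higher at that p there. NK-cell markers were higher in 8 of 8, and 1 of them was without overlap, beside 6.68% of all genes. Klrk1, the receptor NKG2D, was at 7.2, 4 and 0.8 CPM in TCL1 and 41.7, 16.9, 6.7 and 12.5 CPM in p53 mutant samples.

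Other higher genes included Lef1, S1pr1, Klf2 and Ccr7, while T-cell marker sums were higher in the same samples. Lef1, a factor of the Wnt pathway that is also high in CLL, was at 25.6, 19.4 and 63.9 CPM in TCL1 and 214.8, 277.1, 135.8 and 199.2 CPM in p53 mutant samples, a log2 difference of 2.62 (SE 0.42, limma adjusted p = 0.165). S1pr1, the receptor for egress from lymphoid organs, was at 77.9, 141.5 and 221.4 CPM against 624.6, 449.6, 328.7 and 452.3 CPM. Klf2, the factor that induces S1pr1 in quiescent lymphocytes, was at 62.3, 36.8 and 48.7 CPM against 147.7, 108.5, 78.5 and 108.6 CPM, and Ccr7, the receptor for homing to lymph nodes, was at 37, 74.2 and 68.2 CPM against 212.4, 88.4, 101.8 and 187.8 CPM. These 3 genes did not overlap between the genotypes. The whole list of homing receptors and chemokines had a median of -0.07, with 2 of 31 genes higher without overlap, beside 6.68% of all genes. S1pr1, Klf2 and Ccr7 were highest in p53 mutant replicate 1, the sample with the highest T-cell marker sum, and the part of T-cells in them was not tested. Mir17hg, the host transcript of the miR-17-92 cluster, was at 12.7, 13.7 and 12.8 CPM in TCL1 and 26.1, 38.7, 28.5 and 26.4 CPM in p53 mutant samples, a log2 difference of 1.12 (SE 0.19, adjusted p = 0.165). Usp28, a deubiquitinase that acts on Myc and on the p53 pathway, was at 19.6, 19 and 19.8 CPM against 40.3, 61.4, 36.9 and 46.7 CPM. Plekhg2, a guanine nucleotide exchange factor, was at 25.2, 18.7 and 20.1 CPM against 37.7, 42.8, 41.4 and 40 CPM. Mir17hg, Usp28 and Plekhg2 were highest in p53 mutant replicate 3, and, as for the T-cell sums, every p53 mutant sample was above every TCL1 sample. The part of T-cells in these differences was not tested. Kcnip2 (1.93), Cnga1 (2.33), Rab6b (2.20), Rora (1.89) and Smad7 (1.27) completed the 12 under the exclusions given above, and under these, outside the Y-linked genes, the largest difference of the stricter set was that of Slc6a19 (3.38, SE 0.70). Dlg5, Klrd1 and Prss12 followed, with p53 mutant replicate 1 the highest sample in each.

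**Figure D4:**
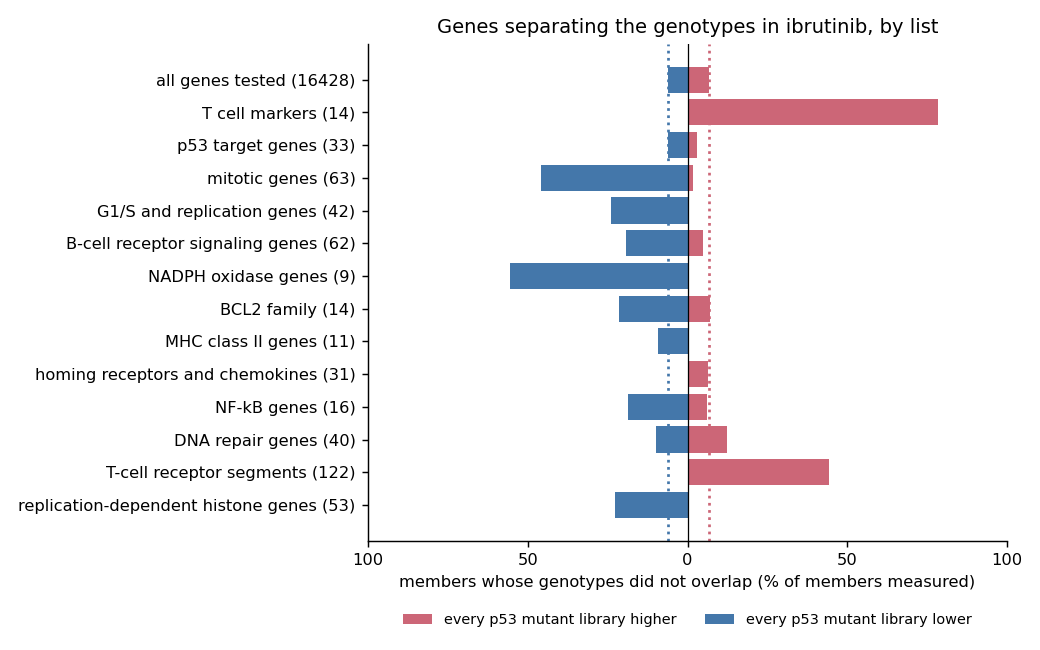
Share of the measured members of each gene list (number measured in parentheses) whose p53 mutant samples were all higher (red, to the right) or all lower (blue, to the left) than every TCL1 sample, in percent. Dotted lines mark the share among all 16428 genes, 6.68% higher and 5.97% lower; mitotic and NADPH oxidase genes extend far to the left and T-cell lists to the right.

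Immunoglobulin variable genes mark B-cell clones. Without overlap, 1 was higher and 1 lower of 64 heavy-chain genes, and 1 was higher and 2 lower of 69 light-chain genes. Over all genes, 6.68% were higher and 5.97% lower without overlap. Ighv1-55 and Igkv12-89 had the largest differences. Ighv1-55 (chromosome 12 of GRCm38, 115208095 to 115208591) was at 162.7, 765.4 and 1146.3 CPM in TCL1 and at 1.8, 0.5, 0.5 and 5.4 CPM in p53 mutant samples, a log2 difference of -7.70 (SE 0.78, limma adjusted p = 0.103). Igkv12-89 (chromosome 6, 68834846 to 68835307) was at 220.6, 1478.4 and 1413.1 CPM against 2.1, 2.4, 2 and 11.2 CPM, a log2 difference of -7.45 (SE 0.80, adjusted p = 0.103). The TCL1 samples thus shared a heavy and a light variable gene. Ighv1-55 took 26.5%, 87.2% and 99.5% of the heavy-chain variable sum in TCL1 replicates 1, 3 and 4, and in replicate 1 Ighv9-3 was ahead of it with 53.5%. The p53 mutant samples each led with a different gene. Those were Ighv11-2 in replicate 1 (59.4% of the sum), Ighv1-52 in replicate 3 (69.7%), Ighv12-3 in replicate 4 (83.0%) and Ighv6-3 in replicate 5 (78.2%). In replicate 1 the whole heavy-chain variable sum was only 20.2 CPM, against 178.1 to 573.8 CPM in the other p53 mutant samples and 614.1 to 1152.2 CPM in TCL1. Ighv11-2 with Igkv14-126, a pair known from B-1 cells that bind phosphatidylcholine, was higher in all p53 mutant samples, at 12, 3.6, 14.1 and 5.8 CPM and 16.7, 8.7, 30.2 and 9.4 CPM. In TCL1 these genes were at 2, 0.2 and 1.7 CPM and at 3.8, 0.3 and 2.6 CPM. Variable genes resemble each other, so reads could be split among them and single values are uncertain. Whether the leukemias arose independently is not given, so the 3 TCL1 samples may not be 3 independent leukemias. The same holds for the p53 mutant samples. Ighv12-3 and Igkv4-91, which led in p53 mutant replicate 4, came second in replicate 5 (9.39% and 15.5%). In DMSO, p53 mutant replicates 1 and 2 both led with Ighv11-2 and Igkv14-126. Replicates 3 and 5 both led there with Ighv6-3 and Igkv12-46. Clone and genotype cannot be told apart for these genes or for the other genes compared here.

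Trp53 itself (chromosome 11 of GRCm38, 69580359 to 69591873) was at 28.4, 35.2 and 22.7 CPM in TCL1 and 37.3, 39.5, 31.8 and 36.9 CPM in p53 mutant samples (exact permutation test, p = 0.0857). The allele differs by a point mutation, so gene-level values do not check the genotype labels. Of 33 p53 target genes, 14 were higher and 19 lower in p53 mutant samples, with a median of -0.08, and none entered the stricter set. Cdkn1a, which encodes the arrest factor p21, was at 21.4, 7.3 and 6 CPM in TCL1 and 0.6, 5.7, 15 and 3.5 CPM in p53 mutant samples, and the groups overlapped. Mdm2, the ligase that degrades p53, was at 105, 66.7 and 75.6 CPM against 59.3, 71.1, 64.5 and 65.1 CPM. Ccng1, a further classical target, was at 123.1, 114.4 and 186.1 CPM against 128.7, 111.2, 82.1 and 106.9 CPM. The death genes Bax (30.2 to 33.8 against 30.3 to 45.6 CPM) and Bbc3, or Puma (21.7 to 30.7 against 22 to 42.8 CPM), overlapped as well. An unadjusted p under 0.05 was reached by 4 of the 33 targets, beside 12% of all genes.

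Among the BCL2 family, which sets the threshold for mitochondrial cell death, 1 higher and 3 lower of 14 genes were in the stricter set, beside 2.48% and 2.28% of all genes. Bik, a BH3-only death gene, was higher, at 0.4, 0.1 and 0.5 CPM in TCL1 and 2.1, 2.5, 1.9 and 1.1 CPM in p53 mutant samples. Bak1, a pore-forming effector, was at 37.8, 32.7 and 23.9 CPM against 21.9, 17.7, 15.7 and 18.5 CPM, and Bcl2l2, a survival member, at 12.1, 7 and 11.5 CPM against 4.5, 3.5, 5.5 and 5.3 CPM. Bid, which links death receptors to mitochondria, was at 35.6, 76 and 48.2 CPM against 22.2, 24.5, 24.4 and 36.2 CPM. Over the whole list, 4 of 5 survival members were lower, and of 9 death members 5 were higher and 4 lower.

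The DMSO samples give the genotype difference without drug, in a table that was scaled separately. Mitotic genes had a median log2 difference of -1.28 there and -1.48 in ibrutinib, and NADPH oxidase genes -0.67 and -1.42. Aspm differed by -1.94 (SE 0.48) in DMSO and -2.76 (SE 0.35) in ibrutinib, and Tk1 by -2.36 (SE 0.49) and -3.12 (SE 0.35). Ncf4 differed by -1.41 (SE 0.69) and -2.67 (SE 0.26), and Rac2 by 0.09 (SE 0.44) and -0.85 (SE 0.17). In DMSO Ncf4 was at 124.3, 257.3 and 332.4 CPM in TCL1 replicates 2, 3 and 4. It was at 30.9, 31.8, 144.6, 154.9 and 167.4 CPM in p53 mutant replicates 1 to 5, so the groups overlapped there. Receptor-responsive genes had a median of 0.71 in DMSO and -0.04 in ibrutinib, and NF-kB genes 0.36 and -0.27. Whether these pairs differ was asked with the interaction of genotype and treatment over all 15 samples, for the 15869 genes in both tables. The interaction called 0 genes (0%) at an adjusted p under 0.05, and 83 genes (0.523%) had an unadjusted p under 0.05, none of them in the mitotic, NADPH oxidase, NF-kB or receptor-responsive lists. That share is below what a threshold of 0.05 gives by chance alone, and sample quality weights gave 1143 such genes. A list without such genes therefore does not show that its pairs are alike. The fit treats the 15 samples as independent, although several share their leading variable genes across the tables. Among them are p53 mutant replicates 1, 4 and 5 and TCL1 replicates 3 and 4. TCL1 replicate 1 in ibrutinib and TCL1 replicate 2 in DMSO also both led with Ighv9-3 and Igkv3-5. With the replicate number as a block, 313 genes had an unadjusted p under 0.05. Such blocks join samples of both genotypes, so the sharing across the tables was not modelled. The interaction was 0.74 log2 for Map3k15 and -1.26 for Ncf4, neither past an unadjusted p of 0.05.

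Cell makeup also differed between the tables. In DMSO the T-cell marker sums were 4463 and 5583.9 CPM in p53 mutant replicates 1 and 2 and 318.8 to 374.2 CPM in replicates 3 to 5, with B-cell marker sums of 334.4, 320.3 and 4946.6 to 5484.3 CPM. So in DMSO only 2 of 5 p53 mutant samples were rich in T-cell transcripts, whereas under ibrutinib all 4 were above TCL1. TCL1 replicate 2 in DMSO held 29680.1 CPM of myeloid and 18184.7 CPM of erythroid markers. TCL1 replicate 1 in ibrutinib was likewise high, at 21056.2 and 15663.5 CPM. Cd28 differed by 0.77 (SE 1.19) in DMSO and 2.28 (SE 0.40) in ibrutinib, with an interaction of 1.51 that did not pass an unadjusted p of 0.05. Replicate numbers do not mark the same animal throughout, since p53 mutant replicate 3 had Y-linked Ddx3y RNA in ibrutinib (82.1 CPM) and nearly none in DMSO (0.1 CPM). The leading heavy-chain gene of p53 mutant replicate 3 was Ighv1-52 in ibrutinib and Ighv6-3 in DMSO, while replicates 1, 4 and 5 led with the same gene in both tables. The lowest interaction p values, none past adjustment, included Pfkp, a phosphofructokinase of glycolysis, whose p53 mutant samples were between 408.9 and 434.9 CPM in DMSO and between 79.8 and 260.7 CPM in ibrutinib. TCL1 samples of Pfkp were between 103 and 204.5 CPM and between 98.7 and 148.8 CPM, an interaction of -1.30 (SE 0.47). Ampd2 (-1.15) and Slc25a12 (-0.84) were on the same side, and Spock2 (1.36) and Dnah17 (2.10) on the other.

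**Figure D5:**
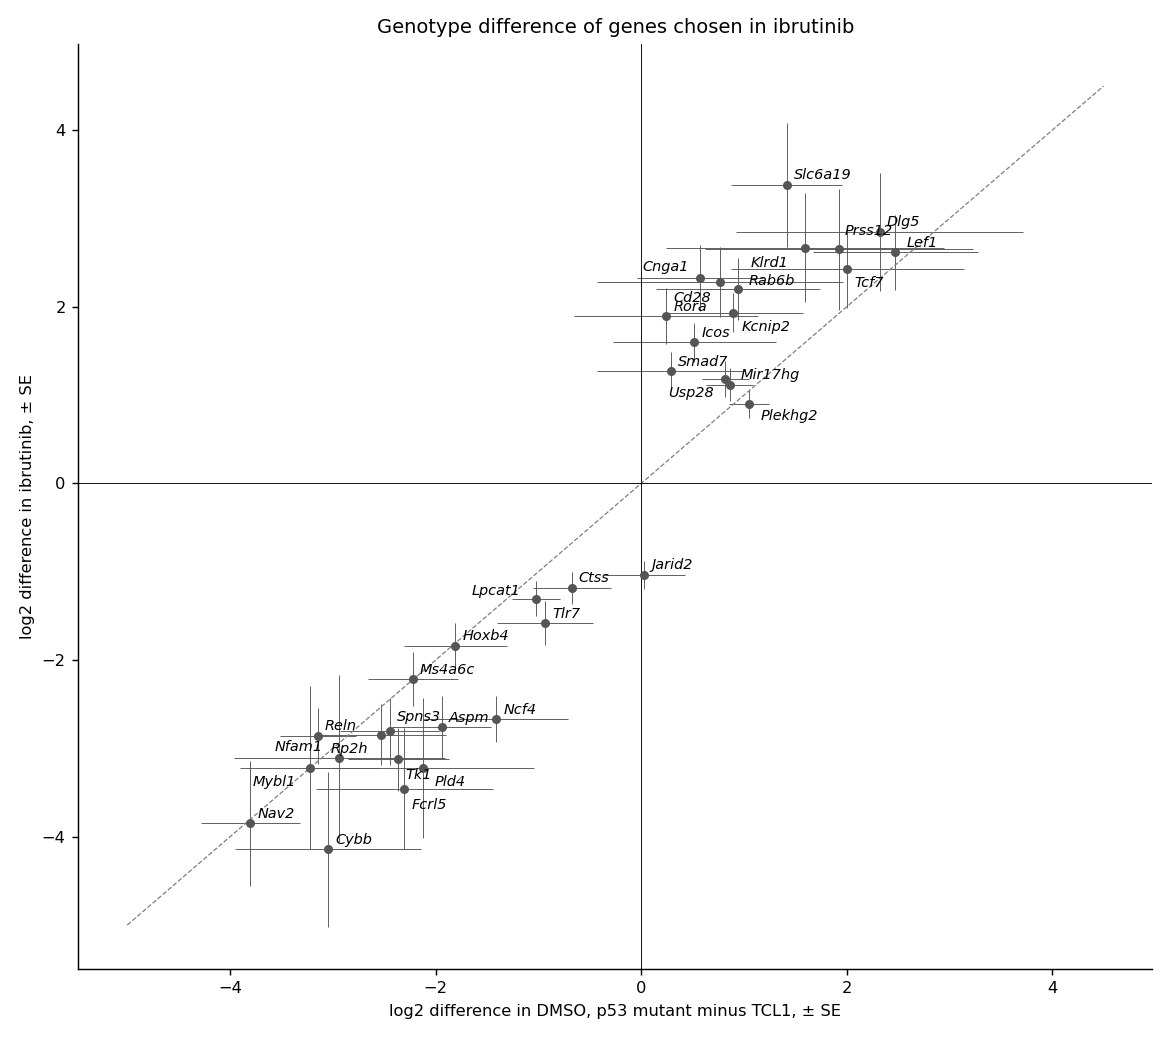
Genotype difference (log2, p53 mutant minus TCL1, with standard errors) in DMSO on the horizontal axis and in ibrutinib on the vertical axis, for the genes with the lowest p or the largest difference in ibrutinib, without Xist and Y-linked genes. The dashed line marks equal differences, and since the genes were chosen in ibrutinib their greater distance from 0 on that axis is in part due to the choice.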

How the data were processed

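RNA-seq libraries of cultured mouse spleen cells were aligned by the authors with TopHat2 (2.0.12), handled with SAMtools (0.1.19) and counted per gene with HTSeq. The authors then scaled the counts with edgeR, and the deposited signal is a normalized CPM rounded to 0.1, in a separate table for each treatment. Whole reads could not be recovered from the rounded values, so depth is unknown and no count model was used. Genes are GENCODE models on GRCm38. Values were tested as log2(CPM + 1) with limma (3.58.1, trended empirical Bayes) without a filter, p53 mutant against TCL1, with Benjamini-Hochberg adjustment at 0.05. A genotype-by-treatment term came from a joint fit of both tables. The script was tested on simulated data with 200 changed genes. Single values over samples had an exact two-sided permutation test. Named genes are the 12 per direction with the lowest p without overlap, the 8 per direction with the largest difference in every leave-one-out fit, up to 4 per gene list, 5 per direction of the interaction, and a fixed set that includes Trp53, Btk and Mki67. Some genes that this rule names are not reported here. The members and lists were chosen with earlier results of these data known. Replicate numbers are used as names only.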

Additional observations from a re-analysis of the deposited data

Results flagged for a closer look

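In groups of 4 samples, 3 of 86 tested values had 1 sample far from the others by Dixon's criterion at the 95% level, where chance alone gives about 1 in 20. All 3 were in p53 mutant replicate 5. Igkv12-89 was at 11.2 CPM there and at 2 to 2.4 CPM in the other p53 mutant samples. Bid was at 36.2 CPM there and at 22.2 to 24.5 CPM in the others. Xist was at 1052.3 CPM there and at 0.3 to 1.2 CPM in the others.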

How the results depend on the processing

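Over 81 named genes, 1257 values under other settings had the same direction and side of the threshold, 20 passed it and 2 reversed. The reversals were Cd79a (0.080) with male transcripts as a covariate and Cdkn1a (0.041) without both replicates 1, a setting chosen after seeing the data. The male covariate sets p53 mutant replicate 5 alone against the TCL1 samples. Genes with an adjusted p under 0.05 numbered 28 under sample quality weights and 0 to 24 when 1 sample was left out. Those with an unadjusted p under 0.05 numbered 702 with the male covariate and 1232 to 2612 when 1 sample was left out. Genes without overlap numbered 5578 without both replicates 1, and 2407 to 4296 when 1 sample was left out (4296, 3332 and 3621 without TCL1 replicates 1, 3 and 4), where fewer samples are compared. Interaction genes at an unadjusted p under 0.05 numbered 52 with a mean of at least 5, 54 under quantile normalization, 1143 under quality weights, 187 with only shared replicate numbers, 313 with the replicate block and 32 to 197 when 1 sample was left out. Median differences moved to 0.068 for all genes under quantile normalization, and to -0.73 for NADPH oxidase genes without both replicates 1. The median of T-cell receptor segments was 2.01 and 0.27 with pseudocounts of 0.1 and 5, 2.64 with a mean of at least 5, and 1.91 with at least 0.5 CPM in every sample. That of p53 targets was 0.019 under quantile normalization, 0.010 with the replicate block, 0.0026 without both replicates 1, and -0.22 to 0.010 when 1 sample was left out. Myeloid and erythroid medians were 0.21 and 0.56 under quality weights, 0.67 and 1.07 without both replicates 1, and -3.16 to 0.16 and -3.22 to 0.82 when 1 sample was left out. The cause of these moves was not tested. The replicate numbers do not pair the samples, since deviations of same-numbered samples correlated at -0.05, -0.16 and -0.17, and the block in effect drops p53 mutant replicate 5, which has no partner. Values are rounded to 0.1 CPM, which limits genes near that level.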

Other observations

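Genes of DNA repair lay on both sides by pathway. Of 21 genes of double-strand break repair, 18 were lower in p53 mutant samples (median -0.52), and of 19 genes of excision and mismatch repair, 15 were higher (median 0.26). Rad54b, a helper of homologous recombination, was at 6.8, 2.1 and 3.2 CPM in TCL1 and 1.1, 1.3, 1.4 and 0.9 CPM in p53 mutant samples. Ercc1, part of the nuclease of nucleotide excision repair, was at 8.8, 7.6 and 9.1 CPM against 16.9, 12.9, 13.1 and 13 CPM. Neither passed adjustment (limma adjusted p = 0.313 and 0.310).

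Genes of amino-acid and unfolded protein stress were lower in 20 of 22 (median -0.61), 5 of them at an unadjusted p under 0.05, beside 6.32% of all genes. Without p53 mutant replicate 1 the median was -0.20, with 15 lower. Calr, the chaperone calreticulin, was at 324.1, 234.3 and 382.9 CPM in TCL1 and 155.9, 180.1, 183.2 and 157.8 CPM in p53 mutant samples. Among B-lineage factors, Bcl11a was at 54.4, 135 and 58.6 CPM against 1.8, 13.9, 35.2 and 16.6 CPM, and Bach2 was at 50.1, 93 and 53.4 CPM against 100.7, 163.1, 136.7 and 83.8 CPM. Of 18 clock genes, 3 had an unadjusted p under 0.05 and were higher, beside 5.69% of all genes, among them Nr1d2, a heme-sensing repressor, at 29.6, 72.1 and 76.9 CPM against 125.2, 119.3, 91.3 and 90.8 CPM. Cytosolic ribosomal protein genes were higher in 69 of 81 (median 0.28), and the median without both replicates 1 was -0.0036. No interferon-stimulated gene (of 22) and no proteasome gene (of 27) had an unadjusted limma p under 0.05, beside 12% of all genes.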
